A study of Ovis aries with 6 samples.

Results

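The HOX cluster miRNAs of longissimus muscle, the long muscle of the back, were examined in small RNA libraries of 2 sheep breeds, Small Tail Han (STH) and Qianhua Mutton Merino (QHMM). Members were chosen by name alone: miR-10a, miR-10b, miR-196a, miR-196b, miR-196c and miR-615, with or without the suffix of a hairpin arm. This rule kept 14 rows of the 11161 rows of the count table, and where rows had 1 name the row with the highest count stood for it, which left 10 of 10430 names. These were miR-10a, miR-10b, miR-10b-5p, miR-196a-5p, miR-196a-3p, miR-196b-5p, miR-196b-3p, miR-196c-5p, miR-615 and miR-615-3p. Each breed had 3 libraries from sheep kept under natural conditions, and the labels name no treatment. The labels give neither age nor sex, nor the level of the back at which the muscle was taken, and do not tell if the libraries of a breed stem from different animals. The p-values therefore speak of the scatter among these libraries alone, which may be technical. Small RNA had been selected by size on a gel and sequenced single-end on an Ion Torrent system.

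HOX genes are transcription factors that lie in the clusters HOXA, HOXB, HOXC and HOXD and give the cells of the trunk their position from head to tail. The clusters also hold miRNA hairpins. miR-10a and miR-10b lie beside HOX genes of the neck and upper trunk, miR-196 hairpins lie further towards the end of the clusters that is used in the lower trunk, and miR-615 lies within HOXC5. A hairpin is cut into a 5p and a 3p arm, and usually one of them is kept in the silencing complex, where bases 2 to 8, the seed, find target transcripts. HOX transcripts themselves are among the known targets of miR-196, with HOXB8 as the best known case. In the RefSeq gene table of the sheep assembly ARS-UI_Ramb_v3.0, MIR10A lay between the protein-coding genes HOXB3 and HOXB4, and MIR10B between HOXD4 and HOXD8.

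The sequences of the miR-10 members are shown first, since these members took most of the counts. They are printed as the deposited table lists them, 5′ to 3′, with the seed in capitals.
miR-10a: tACCCTGTagatccgaatttg
miR-10b: aCCCTGTAgaaccgaatttgtg
miR-10b-5p (rat name): cCCTGTAGaaccgaatttgtgt
The listed miR-10b began 1 base after miR-10a. Over the 20 bases that both then share, 19 were identical, and the difference was T12A, with positions counted from the 5′ end of miR-10a. Because of the shifted start, the seed of the listed miR-10b, CCCTGTA, was not that of miR-10a, ACCCTGT, although the letters ACCCTGT open the miR-10b sequence. The table gives no ends of single reads, so the start of the miR-10b reads is not known here. The rat form of miR-10b-5p shared a run of 21 bases with miR-10b and began 1 base later still.

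The miR-196 members are shown because they are told apart by a single base. The sequence on chromosome 11 is a second row of the name miR-196a-5p. The chromosomes are those in the row names of the predicted loci, on the build Oar_v3.1 according to the processing notes.
miR-196a-5p (chromosome 3): tAGGTAGTttcatgttgttg
miR-196a-5p (chromosome 11): tAGGTAGTtttatgttgttggg
miR-196b-5p (rat name): tAGGTAGTttcctgttgttggg
miR-196c-5p (rat name): tAGGTAGTttcgtgttgttggg
All of these carried the seed AGGTAGT, and the 6 rows of the table with this seed were all rows of miR-196 names. Against the chromosome 3 sequence and over its 20 bases, the chromosome 11 sequence differed by C11T, miR-196b-5p by A12C and miR-196c-5p by A12G, with positions counted from its 5′ end. The RefSeq table lists the HOXC genes on the chromosome with the same name as the miR-196a and miR-615 loci on chromosome 3, and the HOXB genes on the one with the same name as the loci on chromosome 11. Positions were not compared between the assemblies.

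The 3p arms of miR-196 and the arms of miR-615 complete the group, and none of them shared a seed with another member.
miR-196a-3p: gGCAACAAgaaactgcctga
miR-196b-3p (rat name): tCGACAGCacgacactgccttca
miR-615: aGGGGGGTccccggtgctcggat
miR-615-3p: tCCGAGCCtgggtctccctc
The row that stood for miR-615 was the star sequence of the locus whose mature sequence was miR-615-3p, that is, the less counted arm of the same hairpin. The rule kept rows of both arms, but no row under the name of a 3p arm of miR-10a or miR-10b fell under it. Rows named miR-196a-1-3p fell outside the rule because of the copy number in the name, and they held 2 counts each over all libraries.

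The libraries held 8062231 to 11282332 counts over all rows and 5572866 to 7930206 over 1 row per name. CPM are counts scaled so that this second total is 1000000. They leave out the TMM scaling factors that the breed test applied, which ran from 0.894 in QHMM replicate 2 to 1.11 in QHMM replicate 1. The label of the tissue was checked against marker miRNAs: the 17 names of the muscle fibre list summed to 450982 to 547125 CPM, against 0.359 to 1.30 CPM for 2 neuronal names and 3.08 to 31.4 CPM for 11 epithelial names. The 7 red blood cell names summed to 18967 to 84308 CPM in QHMM and 7299 to 13838 CPM in STH, and the 9 leukocyte names to 1790 to 1966 CPM and 1189 to 1465 CPM, so that neither list overlapped between the breeds. The red blood cell list held names of miR-144, miR-451 and miR-486. Its sum was not split by name, so that it is the sum of a list and no measure of blood content. The highest red blood cell sum was that of QHMM replicate 3, which stood apart from the other libraries, and no list had a name at 0 over all libraries. Their part in the results below was not tested. In bulk tissue, fewer cells of a type and less RNA per cell cannot be told apart.

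The HOX cluster miRNAs took 0.957% to 1.38% of the counts of a library over 1 row per name, or 0.680% to 1.02% over all rows, and miR-10b made up nearly all of this share. miR-10b stood in place 17 of 10430 names by mean CPM. It had 9943, 10486 and 13195 CPM in QHMM replicates 1, 2 and 3, and 10916, 8697 and 10654 CPM in STH replicates 1, 2 and 3. The breeds overlapped, and the highest value was that of QHMM replicate 3, the library with the highest red blood cell sum. QHMM averaged 11208 CPM ± 1742 (SD, n = 3), and STH averaged 10089 CPM ± 1213 (SD, n = 3). The rat form miR-10b-5p had 3 counts in all, 1 in each of 3 libraries (exact Poisson 95% interval 0.619 to 8.77 counts, counting error only).

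miR-10a, the paralog in HOXB that differs from miR-10b by T12A, was found at a much lower level, in place 98. It had 362, 387 and 367 CPM in the QHMM libraries and 478, 371 and 437 CPM in the STH libraries. QHMM replicate 2 lay above STH replicate 2, so that the breeds overlapped. QHMM averaged 372 CPM ± 13.1 (SD, n = 3), against 428.6 CPM ± 53.5 (SD, n = 3) for STH. The largest value was 1.32 times the smallest, the narrowest range among the 7 members tested, against 1.52 times for miR-10b.

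miR-196a-5p, from the locus on chromosome 3, stood in place 107, close to miR-10a. It had 267, 367 and 228 CPM in the QHMM libraries and 424, 450.7 and 376 CPM in the STH libraries. In CPM all STH libraries lay above all QHMM libraries, but the gap between QHMM replicate 2 and STH replicate 3 was narrow. Divided by their TMM factors, 0.894 and 1.03, these libraries change order, so that the breeds then overlap. The means were 287 ± 72.0 CPM (SD, n = 3) and 417 ± 38.0 CPM (SD, n = 3).

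The chromosome 11 form of miR-196a-5p was rare. Its sequence stands at 2 loci with the same letters, which had 36 and 20 counts over all libraries against 14622 counts of the chromosome 3 form. Added up, these loci had 6, 7 and 7 counts in QHMM and 11, 13 and 12 counts in STH. In CPM they had 0.795, 1.26 and 0.940 in QHMM and 1.502, 2.11 and 1.51 in STH, without overlap, and no test of this sum was run. The chromosome 3 form exceeded their sum 261-fold and the larger of them 406-fold. How reads of this sequence were divided between the loci was not found in the labels or the study's methods. It differs from the chromosome 3 form by C11T only, and whether mismatched reads of that form were counted here was not tested. The form of the chromosome 3 sequence with 2 more bases at its 3′ end, listed under a mouse name, had 1 count.

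The seed AGGTAGT was therefore carried almost entirely by the chromosome 3 form. miR-196b-5p, of the HOXA cluster, had 4.24, 3.77 and 2.96 CPM in the QHMM libraries and 5.19, 5.67 and 5.30 CPM in the STH libraries. Here too the STH libraries lay above all QHMM libraries, with means of 5.39 ± 0.252 CPM and 3.65 ± 0.650 CPM (SD, n = 3 each). These values rest on 21 to 42 counts per library. miR-196b-5p differs by A12C only from the far more counted miR-196a-5p. Whether reads of miR-196a-5p with a mismatch were counted under miR-196b-5p was not tested. miR-196c-5p had 5 counts in all (exact Poisson 95% interval 1.62 to 11.7), of which 3 were in QHMM replicate 2, and 3 libraries had no count.

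miR-615-3p, from the hairpin within HOXC5, had 21.3, 11.1 and 17.9 CPM in the QHMM libraries and 11.1, 8.26 and 11.9 CPM in the STH libraries. QHMM replicates 1 and 3 lay above all others, while QHMM replicate 2 lay among the STH libraries. Divided by the TMM factors, 0.894 in QHMM replicate 2 and 1.03 in STH replicates 1 and 3, QHMM replicate 2 also lies above the STH libraries. The means were 16.8 ± 5.19 CPM in QHMM and 10.4 ± 1.89 CPM in STH (SD, n = 3 each). The other arm, miR-615, had 2 to 7 counts per library and 27 in all (exact Poisson 95% interval 17.8 to 39.3).

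**Figure D1:**
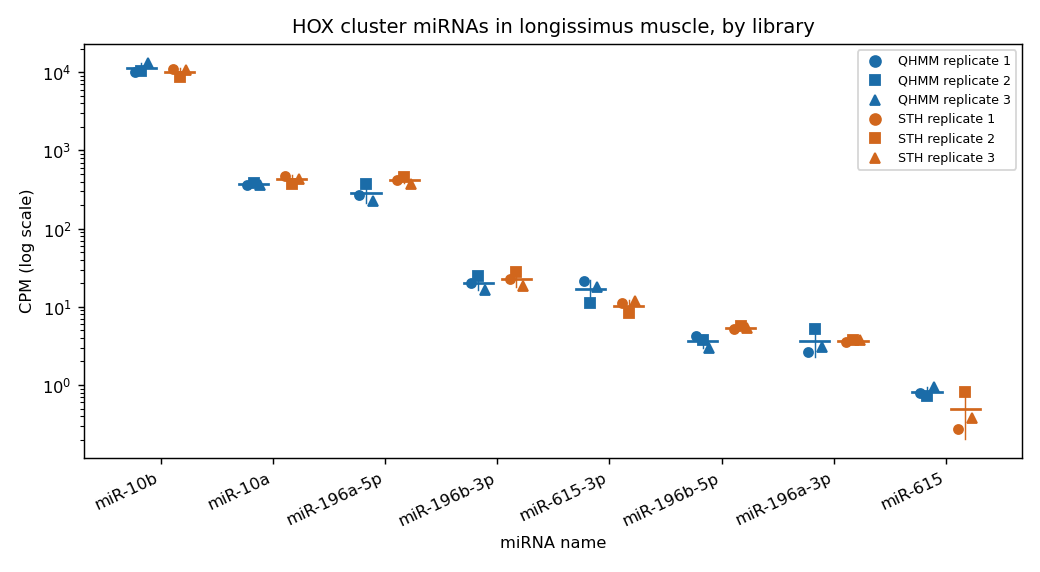
CPM (log scale) of the 8 HOX cluster miRNA names with a count in every library. Each point is a library, and each bar shows the SD around the breed mean (n = 3). miR-10b lies near 10648 CPM, miR-10a and miR-196a-5p near 400 and 352 CPM, and the others at 28.0 CPM or less.

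Rows were then grouped by HOX cluster, miR-10a and miR-10b by their neighbours in the RefSeq table, rows of predicted loci by their chromosome, miR-615 of the rat as HOXC and miR-196b as HOXA by the known position of the hairpins. HOXD, through miR-10b, held 90.9% to 95.4% of the counts of the members in a library. HOXB held 2.66% to 4.04%, nearly all of it miR-10a, and HOXC 1.80% to 4.84%, mainly miR-196a-5p. HOXA, through miR-196b alone, held 0.140% to 0.352%. The 2 rows left without a cluster had 6 counts in all. The HOXD share was 93.6%, 92.9% and 95.4% in the QHMM libraries and 92.0%, 90.9% and 92.6% in the STH libraries, without overlap, a description for which no test was made. HOXD is nearly all miR-10b here, so that this share restates the level of miR-10b against the other members. Of the 1274 names tested, 17.2% did not overlap between the breeds in CPM.

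The more counted arm, as listed, differed between the miR-196 paralogs. miR-196a-5p exceeded miR-196a-3p in every library, by 70.6 to 121 times, with 20 to 30 counts of miR-196a-3p per library. In miR-196b the order was the opposite, and miR-196b-3p exceeded miR-196b-5p in every library, by 3.48 to 6.57 times. miR-196b-3p had 20.1, 24.8 and 16.4 CPM in the QHMM libraries and 22.5, 28.0 and 18.4 CPM in the STH libraries, which made it the fourth most abundant member. miR-615-3p exceeded miR-615 by 10.2 to 40.5 times. The ratio of the arms overlapped between the breeds in all 3 hairpins. Since miR-196b-5p differs from miR-196a-5p by A12C only, its count depends on how reads with a mismatch were assigned, which is not given in the sources used here. This count sets the order of the miR-196b arms, and how far another assignment would move it was not tested.

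**Figure D2:**
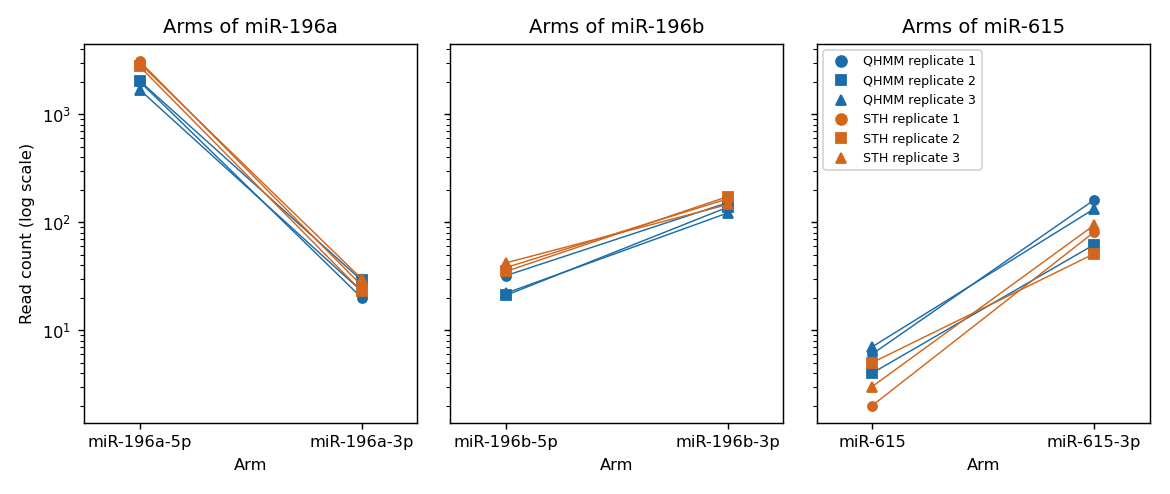
Read counts (log scale) of both arms of miR-196a, miR-196b and miR-615. Each line joins the arms of 1 library, with 3 libraries per breed. The 5p arm lies above in miR-196a in all 6 libraries, and the 3p arm lies above in miR-196b and miR-615 in all 6.

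The breeds were compared across all names with the edgeR quasi-likelihood test, which asked whether the members differ between QHMM and STH muscle. Of the 10 members, 7 passed the filter on low counts and 3 did not (miR-615, miR-196c-5p and miR-10b-5p). At an adjusted p of 0.05, 0 of the 7 were called, where 2.2% of the 1274 names tested were called. No member had an unadjusted p under 0.05, against 174 of all names, and DESeq2 also called none of the 7. The log2 fold change, QHMM over STH, was positive for 2 members and negative for 5, with a median of -0.17 beside 0.031 over all names tested. Of the negative values, that of miR-196a-3p became positive without QHMM replicate 1 (0.19), QHMM replicate 3 (0.088) or STH replicate 2 (0.041), and that of miR-196b-3p without STH replicate 2 (0.050). The median size of the log2 fold change over the 7 members was 0.20 beside 0.36 over all names tested. In CPM, 2 of the 7 did not overlap between the breeds, miR-196a-5p and miR-196b-5p, where 17.2% of all names tested did not. Both figures leave out the TMM factors. With these factors miR-196a-5p overlaps and miR-615-3p does not, and the share over all names was not computed. The sequences of miR-196a-5p and miR-196b-5p differ by A12C only, and whether they are separate observations was not tested.

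The largest difference among the members was that of miR-615-3p, with a log2 fold change of 0.67 (standard error 0.32, 95% interval -0.022 to 1.36, adjusted p = 0.379). In CPM, its level was higher in 2 of 3 QHMM libraries than in every STH library, and with the TMM factors in 3 of 3. The values of miR-196b-5p and miR-196a-5p lay on the other side, in CPM higher in 3 of 3 STH libraries. With the TMM factors this holds for miR-196b-5p only. The log2 fold change of miR-196b-5p was -0.57 (standard error 0.35, 95% interval -1.32 to 0.18, adjusted p = 0.497). For miR-196a-5p it was -0.52 (standard error 0.29, 95% interval -1.16 to 0.11, adjusted p = 0.458). These intervals all held 0, and they also held changes of 2-fold. Without QHMM replicate 2, the QHMM library closest to STH in miR-615-3p and miR-196a-5p, the log2 fold change was 0.83 for miR-615-3p and -0.85 for miR-196a-5p, and neither passed the test (adjusted p = 0.274 and 0.196).

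The miR-10 members differed less. The log2 fold change of miR-10b was 0.16 (standard error 0.21, 95% interval -0.29 to 0.60, adjusted p = 0.768). Without QHMM replicate 3, the library with the highest red blood cell sum, it was 0.014 (adjusted p = 0.987). For miR-10a it was -0.20 (standard error 0.25, 95% interval -0.74 to 0.34, adjusted p = 0.767), and -0.32 without QHMM replicate 2 (adjusted p = 0.620). A change of 2-fold in either direction lay outside the interval for miR-10b and miR-10a. The 3p arms miR-196b-3p and miR-196a-3p had log2 fold changes of -0.17 (standard error 0.33) and -0.010 (standard error 0.41). Without QHMM replicate 3 the value was 0.59 for miR-615-3p, -0.39 for miR-196a-5p and -0.46 for miR-196b-5p.

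**Figure D3:**
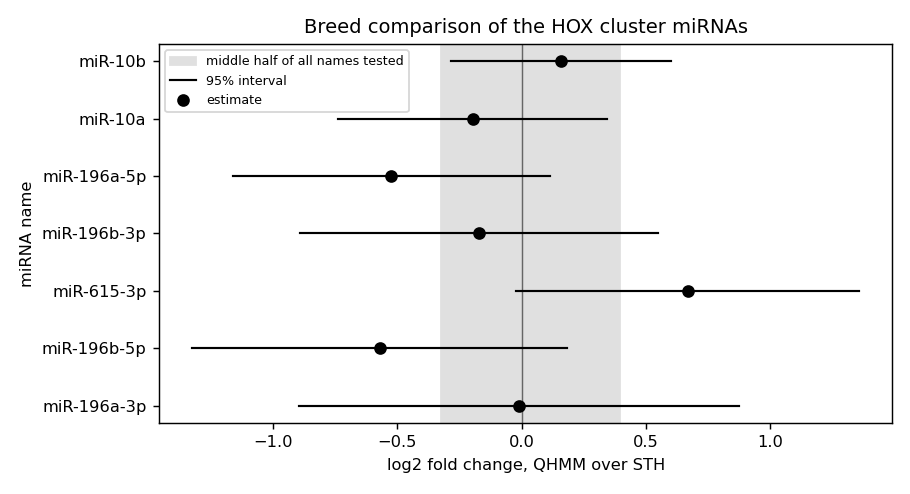
log2 fold change, QHMM over STH, of the 7 HOX cluster miRNA names tested with edgeR, with 95% intervals. The grey band runs from the lower to the upper quartile of all 1274 names tested, -0.32 to 0.40. Every interval crosses 0, with miR-615-3p at 0.67 and miR-196b-5p at -0.57 as the outermost estimates.

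Ratios within a library do not depend on its depth or on scaling factors, so the paralogs were compared in this way. The libraries held 36.4, 36.9 and 27.8 counts of miR-10a per 1000 counts of miR-10b in QHMM, and 43.7, 42.7 and 41.0 in STH. All STH libraries lay above all QHMM libraries. The means were 33.7 ± 5.14 in QHMM and 42.5 ± 1.39 in STH (SD, n = 3 each), and on the log2 scale the ratio was lower in QHMM by a difference of -0.35 (exact permutation test, two-sided, p = 0.10, the smallest that 3 against 3 allow). Without QHMM replicate 3, where the ratio was lowest, the log2 difference was -0.21. The ratio of miR-196a-5p to miR-196b-5p was 62.9, 97.4 and 77.0 in the QHMM libraries and 81.7, 79.5 and 71.0 in the STH libraries. It overlapped between the breeds, with a log2 difference of 0.012 (exact permutation test, two-sided, p = 1.0).

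**Figure D4:**
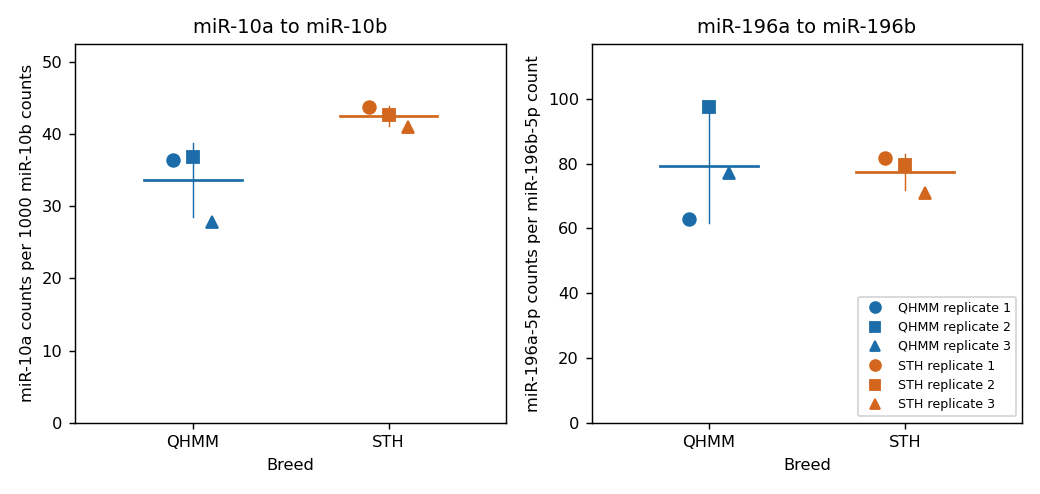
Left, miR-10a counts per 1000 miR-10b counts. Right, miR-196a-5p counts per miR-196b-5p count. Each point is a library, and each bar shows the SD around the breed mean (n = 3). On the left the STH libraries lie between 41.0 and 43.7 and the QHMM libraries at 36.9 or lower, and on the right the breeds overlap.

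The following ratios and correlations were looked at after the values were known and are given as a description, with no test. The hairpins of miR-196 lie further towards the lower trunk end of the clusters than that of miR-10a. miR-196a-5p and miR-10a were at like levels, with 0.737, 0.949 and 0.621 counts of miR-196a-5p per count of miR-10a in QHMM and 0.888, 1.21 and 0.860 in STH. These ratios overlapped between the breeds. Correlations were computed only among members with a mean of at least 10 CPM, and these did not all rise and fall together over the 6 libraries. The Pearson correlation of log2 CPM was 0.10 between miR-10a and miR-10b and 0.77 between miR-196a-5p and miR-196b-3p. It was -0.67 between miR-10b and miR-196a-5p. miR-196a-5p and miR-615-3p, whose loci both lie on chromosome 3, had the lowest value among these members, -0.92. The library with the most miR-196a-5p, STH replicate 2, had the least miR-615-3p, and the ratio of miR-615-3p to miR-196a-5p ran from 0.0183 in this library to 0.0799 in QHMM replicate 1. These correlations share the libraries, their depth and the split into breeds.

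**Figure D5:**
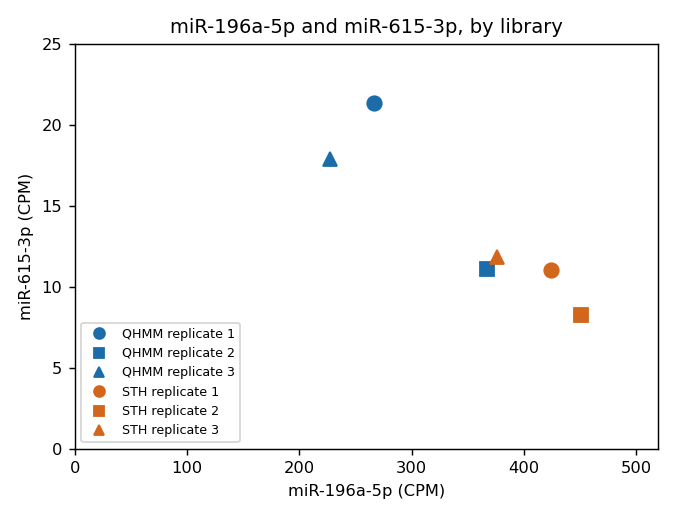
CPM of miR-615-3p against CPM of miR-196a-5p in the 6 libraries, both axes starting at 0. QHMM replicates 1 and 3 lie at low miR-196a-5p and high miR-615-3p, and STH replicate 2 has the highest miR-196a-5p, 450.7 CPM, and the lowest miR-615-3p, 8.26 CPM.

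Over the same 6 libraries, 305 known names outside the members with at least 10 CPM were ordered by their correlation with each abundant member. Closest to miR-196a-5p were miR-20a-3p (r = 0.97), miR-206-3p (0.97) and miR-126a-5p of endothelium (0.92). miR-206-3p is 1 of the 17 names of the muscle fibre list, whose sum did not follow miR-196a-5p. This sum was 535200, 547125 and 518575 CPM in QHMM and 450982, 516405 and 536819 CPM in STH, and overlapped between the breeds. Those nearest to miR-10a were miR-19b (0.94), miR-374b (0.90) and miR-374a (0.90). miR-10b was followed most closely by miR-4508 (0.95), miR-6236 (0.92) and miR-7641 (0.91), all at 43.8 CPM or less in every library. The pattern of miR-615-3p was nearest to miR-193b-3p (0.99), miR-324-3p (0.98) and miR-148b-3p (0.96), and that of miR-196b-3p to miR-133b-5p (0.95), miR-1-3p (0.89) and miR-3586-3p (0.87). These values, the highest of 305 over 6 points, are a description, and no p is given.

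The miR-99 and miR-100 names, whose sequences are related to miR-10, served for comparison. The most abundant of them differed from miR-10a at 4 of 20 shared bases (C3A, T6C, A17T and T18C, positions counted from the 5′ end of miR-10a), and 2 of these changes lie within the seed of miR-10a.
miR-99a: aACCCGTAgatccgatcttg
None of the 7 names shared a seed with a HOX cluster miRNA. miR-99a had 1990 to 7690 CPM, a wider spread between libraries than miR-10b, with its lowest value in QHMM replicate 3, where miR-10b was highest. Of these names 5 were tested and 0 called, with log2 fold changes from -0.60 to 0.25.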

How the data were processed

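Raw read counts per mature sequence were deposited by the authors for 6 libraries, without normalization. Of the processing, DESeq and the build Oar_v3.1 are named in the submitters' notes. Aligner, miRNA caller and the handling of multi-mapped reads: not given in the sources used here. All value columns were mapped to samples by the labels. For 450 names with several rows, the most counted row was used. Libraries of a breed differed beyond sampling noise (chi-square of at least 80.3 per degree of freedom). The breed comparison used R 4.3.3 and edgeR 4.0.16 (robust quasi-likelihood fit, TMM factors, filterByExpr, Benjamini-Hochberg adjustment over all names, no covariates). Standard errors were derived from the F statistic. Alternatives used DESeq2 1.42.0, other factors and filters, a replicate block, other row choices and each library left out. The scripts were tested on simulated data. Ratios were compared with exact permutation tests in Python 3.11.15 (numpy 2.4.6, pandas 2.3.3, scipy 1.17.1), and figures were drawn with matplotlib 3.10.9. Intervals cover counting error only where they are Poisson intervals. The members, lists and tests were chosen with earlier results of these data known. Names described are all members, and for each abundant member the 3 names with the highest correlation of log2 CPM (prior 0.5 CPM, at least 10 CPM, no run of 16 nt shared with a member). Marker lists also covered endothelium (12781 to 27421 CPM over the libraries), vessel wall (32472 to 53020 CPM), fibroblasts (1948 to 3743 CPM) and liver (0.537 to 3.55 CPM).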

Additional observations from a re-analysis of the deposited data

How the results depend on the processing

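No HOX cluster miRNA was called under any of the 15 alternative fits. The count of names called, 28, was 64 unfiltered, 8 where every library had to hold at least 10 counts, 49 with DESeq2, 6 with known names only, 26 with the replicate block, and 16 to 35 with each library left out (16 without QHMM replicate 3, 18 without STH replicate 2, 16 without STH replicate 3). The settings with 8 and 6 calls tested 930 and 487 names in place of 1274. The cause was not tested. Of 105 alternative fold changes of members, 100 kept their sign. The others were those of miR-196a-3p, 0.073 with no filter and -0.45 to 0.19 with each library left out, and of miR-196b-3p, -0.44 to 0.050 with each library left out. The log2 difference of the ratio of miR-10a to miR-10b ran from -0.42 to -0.21, and that of miR-196a to miR-196b from -0.15 to 0.17 with each library left out. For the replicate numbers 1, 2 and 3, deviations from the breed means correlated by 0.061, 0.24 and 0.12 between the breeds. Every library was nearest to the one sharing its number. The labels give no pairing, and whether the numbers are pairs was not tested. With the replicate block the log2 difference of miR-10a to miR-10b was again -0.35 (exact sign-flip permutation test, p = 0.25, the smallest possible). With the total over all rows as denominator, the mean of miR-10b was 7670 CPM in place of 10648 CPM. miR-615, miR-196c-5p and miR-10b-5p did not pass the filter on low counts, and what limits their counts was not tested. The row of miR-10b-5p shares a run of 21 bases with that of miR-10b.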
